A study of Mus musculus with 13 samples.

Results

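FL-cDC1s are the conventional type 1 dendritic cells (cDC1s) that arise when mouse bone marrow is cultured with FLT3L, and they were sorted here as mature, CD83+ cells and as immature, CD83- cells. The account rests on 3 of the 13 libraries of the series, 1 of mature FL-cDC1s and 2 of immature FL-cDC1s, chosen by these sorting labels alone. Both groups were CD115- CX3CR1- cells of the cDC1 gate (B220- MHCII+ CD24lo/+ CD172α-) from cultured marrow of unmodified adult C57BL/6 mice. Neither group received an added stimulus, so maturation means the state that CD83+ cells of the gate had reached in culture with FLT3L. By the study's gating the mature cells stained high for MHC class II and were 2A1+, and the immature cells stained low and were 2A1-. The mature cells made up so small a share of the gate that RNA was obtained from them once. The mature subset therefore had no replicate, and no source states whether the immature libraries came from separate cultures or animals. The mature and the immature libraries were deposited in separate tables, so any difference in how the tables were made cannot be told apart from maturation.

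A cDC1 in tissue samples its surroundings, takes up dead cells and presents their antigens on MHC class I to CD8+ T cells, a route called cross-presentation. On maturation a dendritic cell lowers uptake, moves peptide-loaded MHC to its surface, raises costimulatory ligands and cytokines, and acquires the chemokine receptor CCR7, which guides it along lymphatics to the lymph node. The same program also carries ligands that restrain T cells, and it runs without an added microbial stimulus in what is termed homeostatic maturation.

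The immature libraries held 71330242 and 66069478 reads in genes and the mature library 55609287, within a range of 46042095 to 71330242 over the series. With 3 reads taken as the floor of detection, a gene without a read lay below 0.0421 to 0.0652 CPM. The immature pair correlated at r = 0.941 on log2 FPKM across 9614 genes, and it was a loose pair, with a biological coefficient of variation of 38.6% against 16.6% to 39.7% in the other pairs. Its 2 libraries differed by transcript length. Tested genes were split by length into 5 groups of like size. In the group of shortest transcripts the median level of immature library 2 lay 0.94 above that of immature library 1 on the log2 scale, and in the group next to the longest it lay 0.366 below. All tests were therefore also run with each library's trend over transcript length taken out, an alternative chosen after the data were seen, and its values are given for each named call on maturation that it ended and for several of the lists. A test of 1 library against 2 takes its spread from the other subsets and assumes that the mature library varies as they do.

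The labels were first checked against the sorting marker and against the genes that define mature dendritic cells and cDC1s. Cd83 (Entrez gene 12522, chr13:43785112-43803133), whose protein keeps MHC class II at the surface, had 220.4 and 156 FPKM in the immature libraries and 1593 FPKM in the mature library. It rose by 8.16-fold (log2 fold change 3.03, SE 0.46, adjusted p = 0.00137). Ccr7 (Entrez gene 12775, chr11:99144199-99155077) had 1.11 and 0.240 FPKM in the immature libraries and 7247 FPKM in the mature library. Fscn1 (Entrez gene 14086, chr5:142960355-142973189), which encodes the actin-bundling protein fascin of dendrites, had 1.71 and 0.458 FPKM in the immature libraries and 1495 FPKM in the mature library. For all 3 genes the mature library stood far above both immature libraries. The cDC1 markers were present in all 3 libraries and lower in the mature one. Xcr1 (Entrez gene 23832, chr9:123852315-123862029), the receptor by which cDC1s sense the chemokine XCL1, had 112 and 86.5 FPKM in the immature libraries and 44.6 FPKM in the mature library (log2 fold change -1.21, SE 0.81, adjusted p = 0.307). Clec9a (Entrez gene 232414, chr6:129408862-129424764), a receptor for exposed actin of dead cells, had 14.2 and 14.5 FPKM in the immature libraries and 5.25 FPKM in the mature library (log2 fold change -1.55, SE 0.60, adjusted p = 0.0912). Neither change passed the test, and in mature FL-cDC2s Xcr1 stood at 0.214 and 0.236 FPKM and Clec9a at 0.0441 and 0.0187 FPKM. Sirpa, which encodes the CD172α used to gate cDC2s, had 1.09 and 0.598 FPKM in the immature libraries and 5.46 FPKM in the mature library against 58.1 and 39.0 FPKM in mature FL-cDC2s. Of the negative sorting markers, Csf1r, which encodes CD115, had 9.52 and 4.77 FPKM in the immature libraries and 4.69 FPKM in the mature library, and Cx3cr1 had 0 and 0.147 FPKM in the immature libraries and 0.889 FPKM in the mature library, with no call for either.

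Of 14936 genes tested, 1883 were higher in mature FL-cDC1s (12.6%) and 1237 were lower (8.28%) in edgeR's quasi-likelihood test. The threshold was a Benjamini-Hochberg adjusted p of 0.05. The counts of each gene list below are to be set beside these shares. All lists were chosen with earlier results of these data known, so no list count is independent evidence. The fitted rises were larger than the falls, with a median size of 3.24 among genes called higher and 1.72 among genes called lower on the log2 scale, while the median over all tested genes was near 0. A fitted size depends on the prior count where 1 side had no read. Over all genes, tested or not, 1054 had more than 3 reads in the mature library and 0 in both immature ones. The reverse held for 219 genes. The mature library had a read in 14079 genes and the immature libraries in 12989 and 12969. Lying outside the range of the immature pair was common and no mark of a change by itself, since 73.3% of tested genes did so, 37.4% above and 35.9% below. Calls followed transcript length. In the group of shortest transcripts 6.06% were called higher and 9.97% lower, and in the longest group 20.1% and 2.81%. With the length trend taken out these shares became 14.4% and 8.17% in the shortest group and 15.8% and 9.78% in the longest, and 2410 genes were called higher and 1505 lower in all. The count of lower genes rested on the immature library used, at 724 without immature library 2 and 1682 without immature library 1, against 1416 and 1878 for higher genes.

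**Figure D1:**
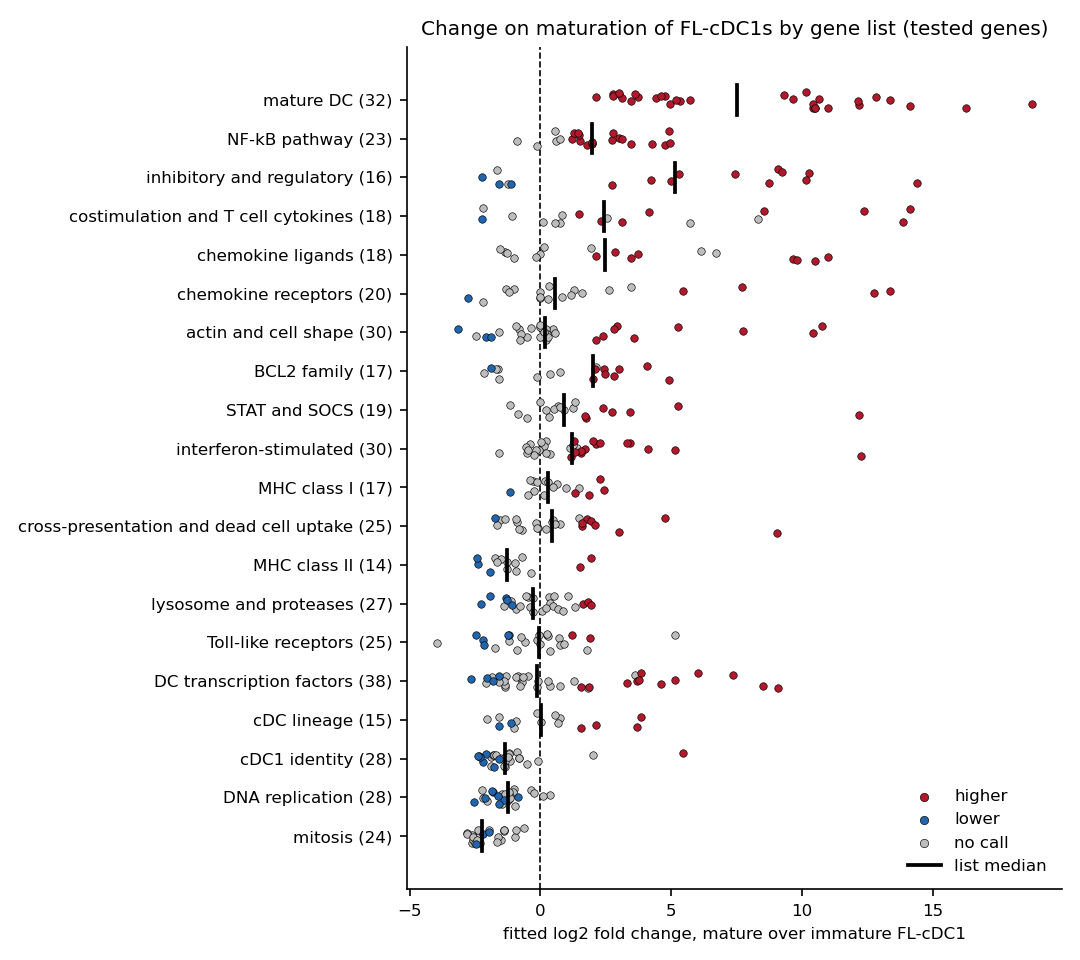
Fitted log2 fold change of mature over immature FL-cDC1s for the tested members of 20 gene lists, 1 point per gene, coloured by the call of edgeR's test, with the median of each list as a bar and the median over all tested genes as the dashed line at about 0. All 32 genes of the mature dendritic cell list lie to the right, the cDC1 identity list lies mostly to the left with a median of -1.36, and most other lists hold genes on both sides.

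All 32 genes of a list of mature dendritic cell genes rose, with a median log2 fold change of 7.52, against the 12.6% of all tested genes that were called higher. The list was drawn up with earlier results of these data known, so its count describes these libraries and is not independent evidence. The summed level of the list was 916 and 749 FPKM in the immature libraries and 26698 FPKM in the mature library, against 39391 and 41036 FPKM in mature FL-cDC2s. Ccr7 was the most abundant transcript of the list in the mature library and made up 27.1% of its sum there. Its fitted rise was 13.38 on the log2 scale (SE 1.16, adjusted p = 4.17e-05), and that of Fscn1 was 10.42 (SE 0.84, adjusted p = 2.79e-05).

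Among genes of membrane traffic, Mreg, which encodes melanoregulin of lysosome-related organelles, had no read in either immature library and 374 FPKM in the mature one, at least 21714-fold higher against the floor of 3 reads per library (adjusted p = 4.21e-06). Cd63, a tetraspanin of late endosomes, had 0.210 and 0.257 FPKM in the immature libraries and 561 FPKM in the mature library (log2 fold change 10.98, SE 0.60, adjusted p = 4.13e-06). Tbc1d4, a GTPase-activating protein for Rab proteins, had 24.4 and 9.57 FPKM in the immature libraries and 213 FPKM in the mature library (log2 fold change 3.63, adjusted p = 0.00151). For each of these genes the mature library lay above both immature libraries. Genes of the apolipoprotein L family rose as well. Apol7c had 0.497 and 0.109 FPKM in the immature libraries and 2281 FPKM in the mature library (log2 fold change 12.85, adjusted p = 2.79e-05), and Apol10b had 0.0445 and 0 FPKM in the immature libraries and 43.3 FPKM in the mature library (log2 fold change 10.67, adjusted p = 3.69e-05). Slco5a1, an organic anion transporter family member, had no read in the immature libraries and 19.0 FPKM in the mature one (adjusted p = 4.13e-06).

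Protease inhibitors and survival genes of the same list rose from a measurable base. Serpinb9, an inhibitor of granzyme B, had 27.8 and 19.4 FPKM in the immature libraries and 525 FPKM in the mature library (log2 fold change 4.43, adjusted p = 0.000106). Serpinb6b had 16.03 and 17.6 FPKM in the immature libraries and 124 FPKM in the mature library (log2 fold change 2.79, adjusted p = 0.00583). Birc3, a ubiquitin ligase of the inhibitor-of-apoptosis family, had 28.8 and 19.1 FPKM in the immature libraries and 172 FPKM in the mature library (log2 fold change 2.79, adjusted p = 0.00019). In each case the mature library stood apart from an immature pair that lay close together. Tmem123 reached 2414 FPKM from 76.7 and 50.3 FPKM, and Samsn1, an adaptor protein, reached 468 FPKM from 9.09 and 12.4 FPKM.

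**Figure D2:**
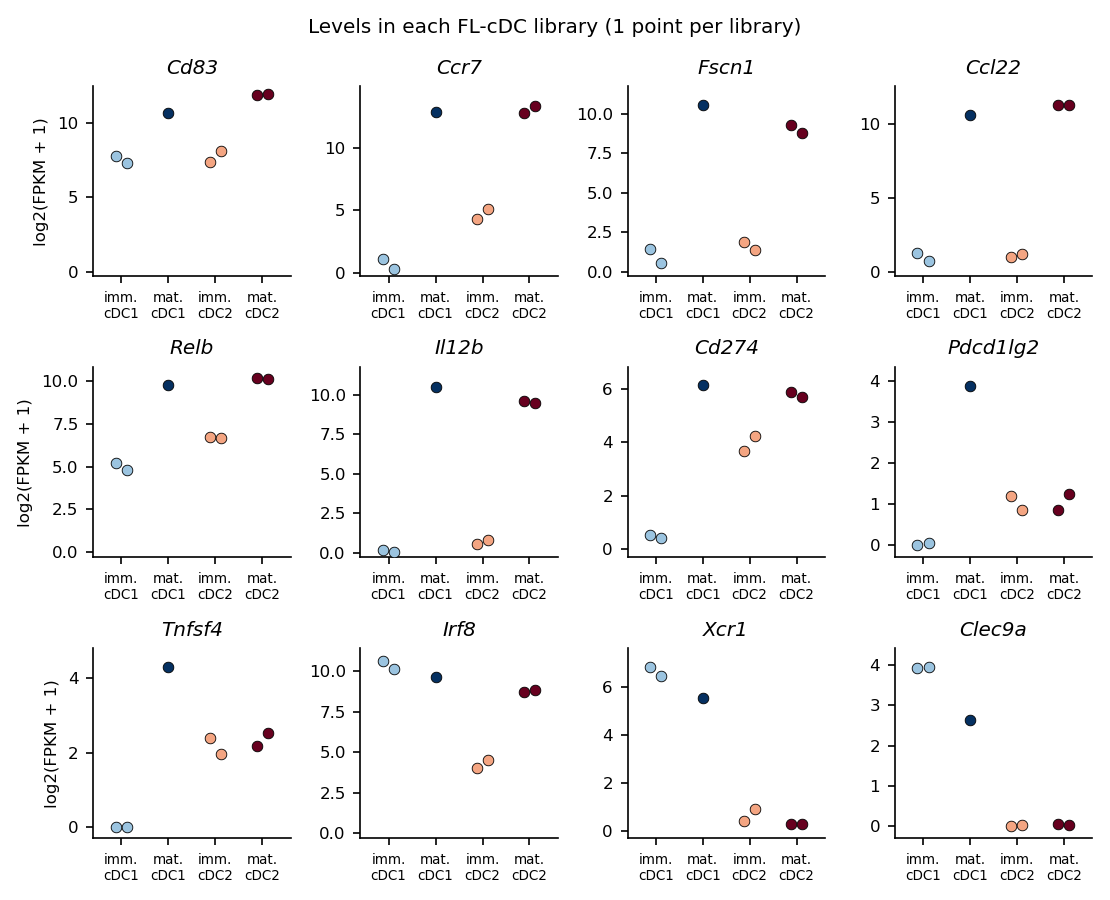
Levels of 12 genes in log2(FPKM + 1) in each library of FL-cDC1s and FL-cDC2s, with 1 point per library. The mature FL-cDC1 library stands with the 2 mature FL-cDC2 libraries and far above both immature subsets for Ccr7, Fscn1, Ccl22 and Relb, above them for Pdcd1lg2 and Tnfsf4, and between the immature FL-cDC1s and the FL-cDC2s for Xcr1 and Clec9a.

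NF-κB is a family of dimeric transcription factors held in the cytoplasm by inhibitors. The canonical arm releases RELA and REL, and the noncanonical arm runs through the kinase NIK (Map3k14) and yields RELB with the p52 product of Nfkb2. Of 23 genes of the pathway, 17 rose, 0 fell and 6 gave no call, with a median log2 fold change of 1.97, against 12.6% of tested genes higher. Among subunits, Relb had 35.8 and 26.8 FPKM in the immature libraries and 881 FPKM in the mature library and rose by 27.1-fold (log2 fold change 4.76, SE 0.30, adjusted p = 7.16e-06). Rel had 3.29 and 2.603 FPKM in the immature libraries and 92.3 FPKM in the mature library (log2 fold change 4.91, adjusted p = 0.000104). Nfkb2 had 48.7 and 21.8 FPKM in the immature libraries and 283 FPKM in the mature library (log2 fold change 3.01, adjusted p = 0.000526), and Rela had 100.1 and 59.0 FPKM in the immature libraries and 233 FPKM in the mature library (log2 fold change 1.51, adjusted p = 0.00722). All 4 subunit genes were higher in the mature library than in either immature library. The remaining subunit gene, Nfkb1, had 30.2 and 30.7 FPKM in the immature libraries and 17.3 FPKM in the mature library and gave no call (log2 fold change -0.90, adjusted p = 0.18). Inhibitors and negative regulators rose alongside. Nfkbia had 83.6 and 105 FPKM in the immature libraries and 681 FPKM in the mature library (log2 fold change 2.76, adjusted p = 0.00264). Tnfaip3, the deubiquitinating enzyme A20, had 4.23 and 1.43 FPKM in the immature libraries and 55.1 FPKM in the mature library (log2 fold change 4.27, adjusted p = 0.00965). Of the noncanonical arm, Map3k14 had 8.37 and 5.54 FPKM in the immature libraries and 62.5 FPKM in the mature library (log2 fold change 3.12, adjusted p = 0.00102), Traf1 9.08 and 9.91 FPKM in the immature libraries and 313 FPKM in the mature library (log2 fold change 4.96, adjusted p = 3.89e-05) and Birc2 9.63 and 4.19 FPKM in the immature libraries and 76.6 FPKM in the mature library (log2 fold change 3.45, adjusted p = 0.00105). The call for Tnfaip3 was lost without immature library 2 (adjusted p = 0.0577). Genes of the IκB kinase complex gave no call, among them Chuk, whose product also acts in the noncanonical arm. Chuk had 42.4 and 28.0 FPKM in the immature libraries and 33.3 FPKM in the mature library, Ikbkb 57.4 and 22.5 FPKM in the immature libraries and 57.6 FPKM in the mature library and Ikbkg 9.43 and 4.35 FPKM in the immature libraries and 11.7 FPKM in the mature library.

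Promoter sequences are shown for 5 genes that rose and for Tlr3. Tlr3 was called lower, but near the threshold, and several other fits lost that call. All 6 hold the consensus motif of NF-κB in the window from 250 bases before to 50 bases after an annotated start. Only windows that hold the motif are shown, so its presence in all 6 is not a finding. The sequences are those of RefSeq on GRCm38.p6, the build of mm10, read 5′ to 3′ on the strand of the gene, and capitals mark bases that match the motif on either strand. The windows are chr19:46304487-46304786 on the plus strand for Nfkb2, chr12:55492598-55492897 on the minus strand for Nfkbia, chr11:23770920-23771219 on the minus strand for Rel, chr10:19015361-19015660 on the minus strand for Tnfaip3, chr19:29410669-29410968 on the plus strand for Pdcd1lg2 and chr8:45410331-45410630 on the minus strand for Tlr3.
Nfkb2: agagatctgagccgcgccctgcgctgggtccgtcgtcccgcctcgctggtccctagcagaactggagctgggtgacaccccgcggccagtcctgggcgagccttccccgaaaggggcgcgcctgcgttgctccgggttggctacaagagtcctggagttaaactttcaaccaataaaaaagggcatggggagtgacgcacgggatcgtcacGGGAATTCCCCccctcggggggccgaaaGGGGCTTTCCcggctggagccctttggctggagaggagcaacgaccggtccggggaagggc
Nfkbia: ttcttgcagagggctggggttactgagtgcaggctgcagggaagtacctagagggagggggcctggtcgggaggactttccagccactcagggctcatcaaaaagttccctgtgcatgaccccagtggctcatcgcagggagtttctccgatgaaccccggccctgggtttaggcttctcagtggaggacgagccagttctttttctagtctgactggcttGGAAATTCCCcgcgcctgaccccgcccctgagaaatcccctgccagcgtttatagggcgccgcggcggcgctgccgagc
Rel: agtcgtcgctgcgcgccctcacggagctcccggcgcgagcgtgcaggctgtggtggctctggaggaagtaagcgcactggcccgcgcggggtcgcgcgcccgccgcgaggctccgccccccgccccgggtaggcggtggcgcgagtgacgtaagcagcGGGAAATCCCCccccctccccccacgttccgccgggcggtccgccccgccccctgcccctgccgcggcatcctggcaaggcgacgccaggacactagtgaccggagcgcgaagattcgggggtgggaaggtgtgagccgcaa
Tnfaip3: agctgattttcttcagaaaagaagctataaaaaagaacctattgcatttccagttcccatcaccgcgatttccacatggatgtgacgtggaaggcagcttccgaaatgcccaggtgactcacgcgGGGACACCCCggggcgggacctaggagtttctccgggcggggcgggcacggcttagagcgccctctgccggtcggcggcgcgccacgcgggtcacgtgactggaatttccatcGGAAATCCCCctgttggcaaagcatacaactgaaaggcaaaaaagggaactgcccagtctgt
Pdcd1lg2: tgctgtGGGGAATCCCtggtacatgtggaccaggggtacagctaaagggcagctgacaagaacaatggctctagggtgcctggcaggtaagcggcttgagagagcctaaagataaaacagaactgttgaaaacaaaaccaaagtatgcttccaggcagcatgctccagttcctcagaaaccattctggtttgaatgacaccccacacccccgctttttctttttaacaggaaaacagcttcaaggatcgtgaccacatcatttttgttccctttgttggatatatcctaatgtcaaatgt
Tlr3: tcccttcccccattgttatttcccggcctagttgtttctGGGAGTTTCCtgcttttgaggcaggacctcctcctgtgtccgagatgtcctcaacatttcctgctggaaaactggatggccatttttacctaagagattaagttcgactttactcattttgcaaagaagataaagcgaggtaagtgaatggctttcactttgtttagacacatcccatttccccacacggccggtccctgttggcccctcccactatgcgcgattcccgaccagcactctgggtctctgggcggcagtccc

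The 10-base motif was searched on both strands, and overlapping matches were counted, which in the windows of Nfkb2 and Rel gives a pair of matches shifted by 1 base. The motif stood in 1480 of 32851 promoter windows (4.51%). Of the 23 pathway genes, 19 had a window, and 9 of these held the motif. Of those 9 genes, 8 rose (Bcl3, Nfkb2, Nfkbia, Nfkbie, Rel, Tnfaip3, Tnip1 and Traf3) and Cyld gave no call. Of the 10 pathway genes with a window and no motif, 8 rose as well. Of the 32 mature dendritic cell genes, 22 had a window, all 22 rose, and 0 held the motif. Across all tested genes with a window, 18.7% of 717 genes with the motif and 12.1% of 10554 genes without it were called higher. These are descriptions of letters in a short window, and whether any factor bound there was not tested. The table held no window for Ccr7, Relb and Traf1.

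Genes of migration changed on the receptor, the ligand and the actin side. Of 20 chemokine and lipid mediator receptors tested, 4 rose (Ccr7, Cxcr5, S1pr1 and Cxcr6), 1 fell (Cxcr3) and 15 gave no call. Their median log2 fold change was 0.58. Of all tested genes 12.6% rose and 8.28% fell. Cxcr5, the receptor for CXCL13 of B cell follicles, had no read in the immature libraries and 5.45 FPKM in the mature one, at least 332-fold higher (adjusted p = 3.03e-05). S1pr1, which guides cells out of tissue along sphingosine-1-phosphate, had 0.0548 and 0 FPKM in the immature libraries and 6.17 FPKM in the mature library (log2 fold change 7.73, adjusted p = 0.00945). Cxcr3 had 101 and 125 FPKM in the immature libraries and 17.9 FPKM in the mature library and fell (log2 fold change -2.75, SE 0.38, adjusted p = 0.00118). Receptors that bring precursors and immature cells into tissue were at lower levels in the mature library without passing the test. Ccr2 had 178 and 129 FPKM in the immature libraries and 34.8 FPKM in the mature library (log2 fold change -2.19, adjusted p = 0.0676) and Ccr1 50.04 and 55.7 FPKM in the immature libraries and 22.8 FPKM in the mature library (log2 fold change -1.29, adjusted p = 0.166).

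Of 18 chemokine ligand genes tested, 8 rose, 0 fell and 10 gave no call, with a median of 2.48, or 2.04 with the genes that had no immature read at their lower bound. Over all tested genes 12.6% rose and 8.28% fell. Ccl22, a ligand of CCR4 on regulatory and effector T cells, had 1.45 and 0.667 FPKM in the immature libraries and 1579.5 FPKM in the mature library (log2 fold change 10.51, SE 0.69, adjusted p = 8.74e-06). Ccl5, which attracts T cells and monocytes, had 0.751 and 0.738 FPKM in the immature libraries and 652 FPKM in the mature library (log2 fold change 9.68, SE 0.76, adjusted p = 2.56e-05). Ccl17, the other CCR4 ligand, reached only 7.31 FPKM from 0.430 and 0.591 FPKM (log2 fold change 3.73, adjusted p = 0.0125). Cxcl16 had the highest base of the group, with 169 and 145 FPKM in the immature libraries and 716 FPKM in the mature library (log2 fold change 2.12, adjusted p = 0.000711). The mature library lay above both immature libraries for each of these 4 genes. Cxcl9 and Cxcl10, which attract CXCR3+ T cells, stayed low, at 0.764 and 4.58 FPKM in the mature library, and only Cxcl10 passed the test (log2 fold change 2.84, adjusted p = 0.023). Without immature library 1 the list held 4 genes called higher, and the calls for Ccl17 (adjusted p = 0.0501) and Cxcl10 (adjusted p = 0.0775) were lost.

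Of 30 actin and cell shape genes, 9 rose, 3 fell and 18 gave no call, with a median of 0.17. The shares over all tested genes were 12.6% higher and 8.28% lower. Beside Fscn1, Myo1g, a class I myosin of leukocytes, had 95.2 and 41.9 FPKM in the immature libraries and 828 FPKM in the mature library (log2 fold change 3.57, adjusted p = 0.00022). Marcks had 41.7 and 30.4 FPKM in the immature libraries and 284 FPKM in the mature library (log2 fold change 2.92, adjusted p = 0.000372) and Marcksl1 439.6 and 394 FPKM in the immature libraries and 1899 FPKM in the mature library (log2 fold change 2.12, adjusted p = 0.00115), both genes for proteins that link actin to the membrane. Swap70 had 56.3 and 19.7 FPKM in the immature libraries and 267 FPKM in the mature library (log2 fold change 2.80, adjusted p = 0.00322). Daam1, a formin, had 0.130 and 0.259 FPKM in the immature libraries and 8.14 FPKM in the mature library (log2 fold change 5.28, adjusted p = 0.000132). The mature library lay above both immature libraries for each of these 5 genes. Was, which encodes the WASP activator of branched actin, fell from 26.1 and 30.4 to 3.35 FPKM (log2 fold change -3.16, adjusted p = 0.00116). Eps8 and Cd82 fell too, to 2.57 and 28.7 FPKM. Genes of bulk actin turnover gave no call, among them Cfl1 with 2602 and 3946 FPKM in the immature libraries and 2452 FPKM in the mature library and Pfn1 with 3837 and 6985 FPKM in the immature libraries and 3474 FPKM in the mature library.

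Among costimulatory ligands and T cell-directing cytokines, 8 of 18 genes tested rose, 1 fell and 9 gave no call, with a median log2 fold change of 2.44, or 1.90 with the genes that had no immature read at their lower bound. Over all tested genes 12.6% rose and 8.28% fell. Il12b, the p40 chain shared by IL-12 and IL-23, had 0.115 and 0.0297 FPKM in the immature libraries and 1435 FPKM in the mature library (log2 fold change 14.15, SE 0.76, adjusted p = 4.13e-06). Its partner chains stayed low, with Il12a at 0.0196 and 0.0456 FPKM in the immature libraries and 0.216 FPKM in the mature library and Il23a at 0 FPKM in the mature library. The p40 transcript was therefore abundant in a library with little transcript of either partner. Cd40, the receptor for CD40L of helper T cells, had 9.28 and 11.4 FPKM in the immature libraries and 197 FPKM in the mature library and rose by 17.8-fold (log2 fold change 4.16, SE 0.33, adjusted p = 2.54e-05). Cd80 had 1.51 and 1.83 FPKM in the immature libraries and 8.99 FPKM in the mature library (log2 fold change 2.34, adjusted p = 0.00247), while Cd86 had 106 and 76.9 FPKM in the immature libraries and 44.8 FPKM in the mature library with no call (log2 fold change -1.08, adjusted p = 0.156). Of these CD28 ligands, only Cd80 passed the test, and whether the changes of Cd80 and Cd86 differ was not tested. Tnfsf4, which encodes OX40L, had no read in either immature library and 18.7 FPKM in the mature one, at least 701-fold higher (adjusted p = 8.74e-06). Cd70, the ligand of CD27, likewise went from no read to 12.7 FPKM, at least 248-fold higher (adjusted p = 0.000868). Il15 had 2.05 and 4.14 FPKM in the immature libraries and 29.7 FPKM in the mature library (log2 fold change 3.14, adjusted p = 0.0025), and Il15ra, the receptor chain that presents it, had 3.72 and 3.47 FPKM in the immature libraries and 41.6 FPKM in the mature library (log2 fold change 3.47, adjusted p = 0.000117). Tgfb1 fell, with 141 and 89.9 FPKM in the immature libraries and 25.3 FPKM in the mature library (log2 fold change -2.24, adjusted p = 0.0155). Il6 had 0 and 0.0269 FPKM in the immature libraries and 8.37 FPKM in the mature one (adjusted p = 0.000934).

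Of 16 genes that restrain T cells or mark regulatory functions, 11 rose, 3 fell and 2 gave no call, with a median of 5.16, or 4.67 with the genes that had no immature read at their lower bound. Over all tested genes 12.6% rose and 8.28% fell. Cd274, which encodes PD-L1, had 0.433 and 0.325 FPKM in the immature libraries and 69.1 FPKM in the mature library (log2 fold change 7.44, SE 0.57, adjusted p = 2.03e-05). Pdcd1lg2, which encodes PD-L2, had 0.00810 and 0.0305 FPKM in the immature libraries and 13.7 FPKM in the mature library (log2 fold change 9.09, SE 0.66, adjusted p = 1.56e-05). Il4i1, an amino acid oxidase, had 0.978 and 0.565 FPKM in the immature libraries and 925 FPKM in the mature library (log2 fold change 10.18, SE 0.64, adjusted p = 7.26e-06). For all 3 genes the immature libraries were below 1 FPKM and the mature library was far above them. The tryptophan-degrading enzymes rose as a pair. Ido1 had 0.900 and 0.579 FPKM in the immature libraries and 31.3 FPKM in the mature library (log2 fold change 5.30, adjusted p = 0.00478) and Ido2 0.0183 and 0 FPKM in the immature libraries and 12.7 FPKM in the mature library (log2 fold change 10.26, adjusted p = 0.000169). Itgb8, the integrin chain that activates latent TGF-β, had no read in the immature libraries and 14.2 FPKM in the mature one, at least 1023-fold higher (adjusted p = 7.1e-05). Cd200 had 7.34 and 5.51 FPKM in the immature libraries and 124 FPKM in the mature library (log2 fold change 4.22, adjusted p = 0.000175), Fas 0.323 and 0.697 FPKM in the immature libraries and 18.1 FPKM in the mature library (log2 fold change 5.01, adjusted p = 3.92e-05) and Socs1 4.62 and 5.71 FPKM in the immature libraries and 37.1 FPKM in the mature library (log2 fold change 2.74, adjusted p = 0.00218). Lgals9, Vsir and Tgfb1 fell. Aldh1a2, the enzyme that makes retinoic acid, stayed at 0.380 FPKM in mature FL-cDC1s, against 22.6 and 22.7 FPKM in mature FL-cDC2s.

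Genes of the MHC class II pathway were called in both directions. Of 14 genes, 2 rose, 3 fell and 9 gave no call, with a median of -1.29, against 12.6% and 8.28% over all genes. The chains themselves gave no call, with H2-Aa at 7555 and 11702 FPKM in the immature libraries and 6298 FPKM in the mature library (log2 fold change -0.72, adjusted p = 0.387), H2-Ab1 at 21136 and 30860.4 FPKM in the immature libraries and 8457 FPKM in the mature library (log2 fold change -1.72, adjusted p = 0.0718) and Cd74, the invariant chain, at 51363 and 62408 FPKM in the immature libraries and 21081 FPKM in the mature library (log2 fold change -1.501, adjusted p = 0.0827). The peptide-exchange factor fell in both chains, as H2-DMa had 589 and 965 FPKM in the immature libraries and 163 FPKM in the mature library (log2 fold change -2.37, adjusted p = 0.025) and H2-DMb1 1150.0 and 1490.0 FPKM in the immature libraries and 260.1 FPKM in the mature library (log2 fold change -2.44, adjusted p = 0.0124). H2-Ob, a chain of the DM inhibitor, fell as well (log2 fold change -1.94, adjusted p = 0.027). The 2 genes that rose encode the processing enzymes legumain (Lgmn, 133 and 122 FPKM in the immature libraries and 513 FPKM in the mature library, log2 fold change 1.94, adjusted p = 0.000977) and GILT (Ifi30, 51.9 and 102 FPKM in the immature libraries and 241 FPKM in the mature library, log2 fold change 1.53, adjusted p = 0.0495). March1, the ubiquitin ligase that clears MHC class II from the surface, had 37.8 and 19.5 FPKM in the immature libraries and 9.44 FPKM in the mature library and did not pass (log2 fold change -1.64, adjusted p = 0.0891). Ciita, the master activator of the class II genes, had 100.3 and 58.1 FPKM in the immature libraries and 42.1 FPKM in the mature library and did not pass either (log2 fold change -0.95, adjusted p = 0.0795). Without immature library 1 the call for Ifi30 was lost (adjusted p = 0.128) and 6 genes fell, and without immature library 2 the calls for H2-DMa (adjusted p = 0.0808) and H2-Ob (adjusted p = 0.0819) were lost and 1 fell. Ifi30 also lost its call with no filter on low counts and in the 3 fits of fewer libraries (adjusted p between 0.0517 and 0.0801). The class II genes called lower numbered 9 with DESeq2, 8 and 6 with limma on log2(FPKM + 1) and log2(FPKM + 0.1), 6 with the 9 FLT3L libraries and 5 with the 7 FL-cDC libraries. With the length trend taken out, 2 class II genes rose and 5 fell, and the fitted change of H2-Aa turned to 0.13 (adjusted p = 0.824).

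Of 17 MHC class I pathway genes, 4 rose, 1 fell and 12 gave no call, with a median of 0.28. The shares over all tested genes were 12.6% higher and 8.28% lower. H2-K1 had 481 and 513 FPKM in the immature libraries and 2858 FPKM in the mature library (log2 fold change 2.45, SE 0.30, adjusted p = 0.00038) and H2-D1 1629.6 and 1577 FPKM in the immature libraries and 4264 FPKM in the mature library (log2 fold change 1.34, adjusted p = 0.0128). The reads of these heavy chains may be shared with each other and with other H2 genes. Nlrc5, the activator of class I genes, had 3.73 and 1.27 FPKM in the immature libraries and 12.4 FPKM in the mature library (log2 fold change 2.30, adjusted p = 0.00635), and Tapbpl, a peptide editor, had 43.2 and 39.2 FPKM in the immature libraries and 159 FPKM in the mature library (log2 fold change 1.88, adjusted p = 0.001). All 4 were higher in the mature library than in either immature one. The transporter and immunoproteasome genes gave no call, with Tap1 at 329 and 201 FPKM in the immature libraries and 310.3 FPKM in the mature library, Tap2 at 299 and 224 FPKM in the immature libraries and 229 FPKM in the mature library and Psmb8 at 1168 and 1930.0 FPKM in the immature libraries and 1365 FPKM in the mature library. B2m, the light chain, had 1113 and 2353 FPKM in the immature libraries and 5299 FPKM in the mature library and missed the threshold (log2 fold change 1.49, adjusted p = 0.0966). With the length trend taken out, 8 class I genes rose and 1 fell.

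Of 25 genes of cross-presentation and uptake of dead cells, 8 rose, 1 fell and 16 gave no call, with a median of 0.44. The shares over all tested genes were 12.6% higher and 8.28% lower. Mfge8, a bridge from dead cells to integrins, had 18.8 and 14.99 FPKM in the immature libraries and 141 FPKM in the mature library (log2 fold change 3.01, SE 0.27, adjusted p = 4.92e-05). Itgb5, an integrin chain of that route, had 0.361 and 0.349 FPKM in the immature libraries and 10.1 FPKM in the mature library (log2 fold change 4.75, adjusted p = 0.000266). Timd4, a phosphatidylserine receptor, had 10.1 and 6.74 FPKM in the immature libraries and 26.2 FPKM in the mature library (log2 fold change 1.59, adjusted p = 0.011), and Lnpep, the aminopeptidase IRAP of endosomal cross-presentation, had 3.36 and 1.31 FPKM in the immature libraries and 10.0 FPKM in the mature library (log2 fold change 2.09, adjusted p = 0.00495). Ncf1 and Cybb of the phagosomal oxidase rose to 350.5 and 18.8 FPKM. Wdfy4, required for cross-presentation of cell-associated antigen in mice, had 34.0 and 37.8 FPKM in the immature libraries and 15.1 FPKM in the mature library with no call (log2 fold change -1.33, adjusted p = 0.193), and Rac2 fell (log2 fold change -1.72, adjusted p = 0.0185). The call for Rac2 was lost without immature library 2 (adjusted p = 0.06). Sec22b, Sec61a1, Derl1 and Rab43 gave no call.

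Of 27 lysosomal and protease genes, 3 rose, 5 fell and 19 gave no call, with a median of -0.29, against 12.6% of all tested genes higher and 8.28% lower, so the share of higher genes was near that of all genes. Lamp1 had 309.5 and 269 FPKM in the immature libraries and 944 FPKM in the mature library (log2 fold change 1.64, adjusted p = 0.00324) and Ctsd, cathepsin D, 15.5 and 21.5 FPKM in the immature libraries and 69.4 FPKM in the mature library (log2 fold change 1.81, adjusted p = 0.00993). The genes that fell encode hydrolases and their helpers, among them Ctsa, Hexa, Lipa and Psap. Psap, the precursor of the saposins, fell from 357 and 362 to 79.0 FPKM (log2 fold change -2.26, adjusted p = 0.0464). The cysteine proteases Ctss, Ctsb and Ctsl gave no call, with Ctss at 975 and 1246 FPKM in the immature libraries and 619.6 FPKM in the mature library. The call for Psap was lost without immature library 1 (adjusted p = 0.0548) and without immature library 2 (adjusted p = 0.105), which left 3 and 2 genes lower. The genes called lower numbered 3 under either other scaling and with the 7 FL-cDC libraries and 1 with the 3 FL-cDC1 libraries, and those called higher 6 with DESeq2 and 5 with median-of-ratios size factors, with the stricter filter and with limma. With the length trend taken out, 7 lysosomal genes rose and 5 fell.

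Sensors and signal genes of innate recognition mostly gave no call. Of 25 genes of Toll-like receptors, co-receptors and adaptors, 2 rose, 5 fell and 18 gave no call, with a median near 0. Of all tested genes 12.6% rose and 8.28% fell. The genes called lower numbered 6 with DESeq2, 3 with median-of-ratios size factors and 1 with the 7 FL-cDC libraries. Tlr3, the receptor for double-stranded RNA of cDC1s, had 74.0 and 26.2 FPKM in the immature libraries and 10.9 FPKM in the mature library (log2 fold change -2.21, SE 0.71, adjusted p = 0.0495). The other genes that fell were Unc93b1, the chaperone of endosomal receptors, with 888 and 703 FPKM in the immature libraries and 362 FPKM in the mature library (log2 fold change -1.19, adjusted p = 0.0269), the adaptor gene Myd88 with 133 and 133 FPKM in the immature libraries and 59.6 FPKM in the mature library (log2 fold change -1.23, adjusted p = 0.0442), and Cd180 and its partner Ly86. Traf6 and Irak3 rose to 25.1 and 1.43 FPKM. Tlr11 and Tlr12, which sense profilin of Toxoplasma in cDC1s, gave no call, with 22.2 and 10.2 FPKM in the immature libraries and 7.22 FPKM in the mature library for Tlr11 and 18.7 and 10.1 FPKM in the immature libraries and 7.89 FPKM in the mature library for Tlr12. Without immature library 1 Tlr3 lost its call (adjusted p = 0.137), and without immature library 2 Unc93b1 (adjusted p = 0.0522) and Myd88 (adjusted p = 0.113) lost theirs. Myd88 lost its call with the length trend taken out as well (adjusted p = 0.0701). Tlr3 lay near the threshold. Its call was also lost under both other scalings and with no filter on low counts (adjusted p between 0.0507 and 0.0728). With the 7 FL-cDC libraries it was lost as well (adjusted p = 0.0758). The immature libraries differed in Tlr3 from each other by more than the lower one differed from the mature library on the FPKM scale.

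Of 30 interferon-stimulated genes, 14 rose, 0 fell and 16 gave no call, with a median of 1.21. The shares for this list and the next are 12.6% higher and 8.28% lower over all tested genes. Gbp2, a guanylate-binding protein, had 1.72 and 0.783 FPKM in the immature libraries and 44.8 FPKM in the mature library (log2 fold change 5.13, SE 0.42, adjusted p = 2.91e-05). Irf1 had 41.5 and 35.7 FPKM in the immature libraries and 399 FPKM in the mature library (log2 fold change 3.30, SE 0.29, adjusted p = 4.26e-05), and Oasl1 had 2.86 and 2.11 FPKM in the immature libraries and 44.5 FPKM in the mature library (log2 fold change 4.10, adjusted p = 7.89e-05). For these 3 genes the mature library was above both immature libraries by a wide margin. The interferon-stimulated genes Isg15 and Mx1 rose to 47.4 and 10.7 FPKM from 6.28 and 13.6 and 1.96 and 3.04 FPKM. Irf7, Ifit2, Stat2 and Irf9 gave no call, with Irf7 at 53.7 and 44.5 FPKM in the immature libraries and 50.03 FPKM in the mature library. Of 19 STAT, SOCS and Janus kinase genes, 7 rose, 0 fell and 12 gave no call, with a median of 0.91. Socs2 had 0 and 0.0604 FPKM in the immature libraries and 153 FPKM in the mature library (log2 fold change 12.20, adjusted p = 3.13e-05). Stat4, which transduces IL-12 and interferon signals, had 8.90 and 2.91 FPKM in the immature libraries and 228 FPKM in the mature library (log2 fold change 5.27, SE 0.68, adjusted p = 0.000554). Stat3 had 96.1 and 38.3 FPKM in the immature libraries and 226 FPKM in the mature library (log2 fold change 1.73, adjusted p = 0.0183) and Stat5a 23.2 and 11.1 FPKM in the immature libraries and 57.7 FPKM in the mature library (log2 fold change 1.70, adjusted p = 0.0264). Without immature library 2 the calls for Stat3 (adjusted p = 0.0664) and Stat5a (adjusted p = 0.112) were lost and 3 genes of the list rose, against 10 without immature library 1.

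The levels of most cDC1 identity genes were lowest in the mature library of the 3, and how many passed the test depended on the fit. The mature library lay below both immature libraries for 25 of 28 genes, against 35.9% of all tested genes. By the test 1 rose, 7 fell and 20 gave no call, with a median log2 fold change of -1.36. Over all tested genes 8.28% were called lower. The summed level was 6347 and 6315 FPKM in the immature libraries and 2594 FPKM in the mature library. In bulk RNA, fewer cells of a type and less RNA per cell cannot be told apart. Naaa, an acid amidase, had 852 and 866 FPKM in the immature libraries and 213 FPKM in the mature library (log2 fold change -2.09, SE 0.36, adjusted p = 0.00327). Ppt1, a lysosomal thioesterase, had 813 and 706 FPKM in the immature libraries and 153 FPKM in the mature library (log2 fold change -2.38, SE 0.38, adjusted p = 0.00191), and Ifi205 had 262 and 296 FPKM in the immature libraries and 59.1 FPKM in the mature library (log2 fold change -2.32, SE 0.41, adjusted p = 0.00349). The immature libraries lay close together for all 3 genes, and the mature library lay below them. Rab7b, Snx22, Fzd1 and Tlr3 made up the rest of the genes that fell, and Rab7b had 223 and 212 FPKM in the immature libraries and 44.9 FPKM in the mature library (log2 fold change -2.35, adjusted p = 0.0371). The 1 gene that rose was Ly75, which encodes the uptake receptor DEC-205, a protein found on cDC1s and on mature dendritic cells, with 2.52 and 1.16 FPKM in the immature libraries and 82.7 FPKM in the mature library (log2 fold change 5.47, SE 0.55, adjusted p = 0.000109). Itgae, which encodes CD103, had 89.9 and 38.8 FPKM in the immature libraries and 28.9 FPKM in the mature library with no call (log2 fold change -1.17, adjusted p = 0.488). Cadm1 had 82.7 and 74.9 FPKM in the immature libraries and 22.5 FPKM in the mature library (log2 fold change -1.88, adjusted p = 0.0759), also with no call. The call for Rab7b was lost without immature library 2 (adjusted p = 0.082), and that for Tlr3 without immature library 1 (adjusted p = 0.137). Tlr3 also lost its call under both other scalings. With the length trend taken out, 9 genes of the list fell and 1 rose. The genes called lower numbered 14 with limma on log2(FPKM + 1), 13 with the 9 FLT3L libraries alone, 12 with DESeq2 and 4 with the 3 FL-cDC1 libraries alone.

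**Figure D3:**
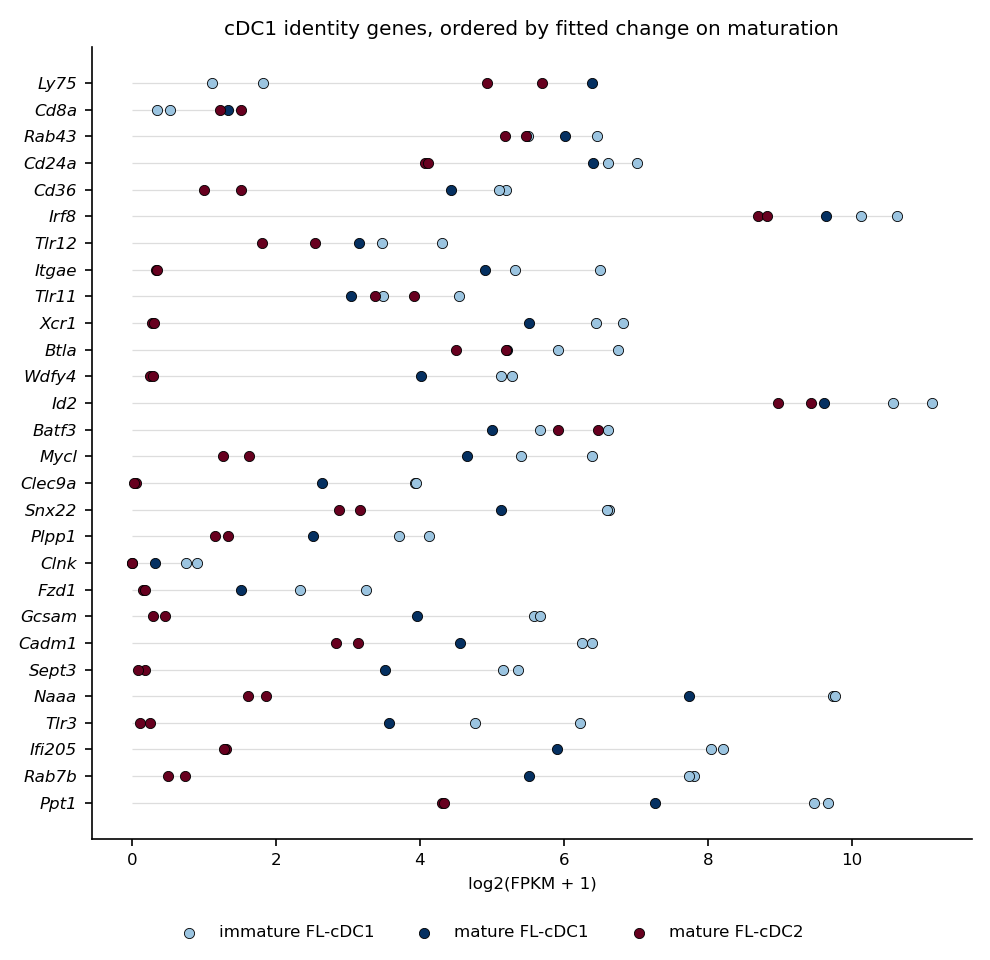
Levels of the 28 cDC1 identity genes in log2(FPKM + 1) in the 2 immature FL-cDC1 libraries, the mature FL-cDC1 library and the 2 mature FL-cDC2 libraries, with genes ordered by fitted change on maturation. The mature FL-cDC1 points lie mostly below the immature ones and, for 16 genes called higher, above the mature FL-cDC2 points.

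The transcription factors that define the lineage did not pass the test. Irf8, the factor on which cDC1s depend, had 1569.8 and 1119 FPKM in the immature libraries and 793 FPKM in the mature library (log2 fold change -0.83, SE 0.38, adjusted p = 0.146). Batf3, its partner, had 49.7 and 97.1 FPKM in the immature libraries and 31.1 FPKM in the mature library (log2 fold change -1.36, adjusted p = 0.166), and Id2 had 1512 and 2209 FPKM in the immature libraries and 780.1 FPKM in the mature library (log2 fold change -1.35, adjusted p = 0.0888). Zbtb46, a factor of all conventional dendritic cells, had 60.1 and 22.2 FPKM in the immature libraries and 68.0 FPKM in the mature library (log2 fold change 0.76, adjusted p = 0.427). The mature library was the lowest of the 3 for Irf8, Batf3 and Id2, and slightly the highest for Zbtb46. Of 38 transcription factor genes in all, 12 rose, 4 fell and 22 gave no call, with a median of -0.11. The shares over all tested genes were 12.6% higher and 8.28% lower. Nr4a3, an orphan nuclear receptor linked to dendritic cell migration in mice, had 0.0749 and 0.117 FPKM in the immature libraries and 17.6 FPKM in the mature library (log2 fold change 7.36, SE 0.52, adjusted p = 1.44e-05). Spib, an ETS factor, had 0.103 and 0.0695 FPKM in the immature libraries and 50.6 FPKM in the mature library (log2 fold change 9.07, SE 0.95, adjusted p = 0.000143). Bhlhe40 had 48.7 and 26.6 FPKM in the immature libraries and 530.4 FPKM in the mature library (log2 fold change 3.78, adjusted p = 0.000238), Nfil3 6.44 and 7.15 FPKM in the immature libraries and 103 FPKM in the mature library (log2 fold change 3.84, adjusted p = 0.000462) and Etv3 2.57 and 2.64 FPKM in the immature libraries and 68.5 FPKM in the mature library (log2 fold change 4.62, adjusted p = 2.24e-05). Irf4, a factor of cDC2s and of migrating cells, had 0.899 and 0.549 FPKM in the immature libraries and 9.81 FPKM in the mature library (log2 fold change 3.71, adjusted p = 0.000347). The 6 genes were near 0 to moderate in the immature libraries and higher in the mature one. Myc had 97.0 and 68.1 FPKM in the immature libraries and 24.2 FPKM in the mature library and fell (log2 fold change -1.82, SE 0.31, adjusted p = 0.00285), as did Batf, Ikzf1 and Cebpa. Of 15 genes shared by conventional dendritic cells, 4 rose, 2 fell and 9 gave no call, and Flt3, the receptor for the culture's growth factor, had 108 and 63.5 FPKM in the immature libraries and 88.9 FPKM in the mature library with no call.

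The summed levels of cell cycle genes were lower in the mature library than in either immature one, while the number of genes called depended on the fit. Of 28 DNA replication genes, 0 rose, 8 fell and 20 gave no call, with a median of -1.25, against 8.28% of all tested genes called lower. The replication genes called lower numbered 14 with DESeq2 and with the 9 FLT3L libraries alone, 13 with limma on log2(FPKM + 1) and 1 with the 3 FL-cDC1 libraries alone. Their summed level was 1472 and 1181 FPKM in the immature libraries and 599.97 FPKM in the mature library, against 344 and 332 FPKM in mature FL-cDC2s. Lig1, DNA ligase I, had 39.8 and 18.4 FPKM in the immature libraries and 8.46 FPKM in the mature library (log2 fold change -1.81, adjusted p = 0.0102), and Tyms, thymidylate synthase, 10.5 and 18.8 FPKM in the immature libraries and 3.67 FPKM in the mature library (log2 fold change -2.11, adjusted p = 0.0157). Of 24 mitosis genes, 0 rose, 3 fell and 21 gave no call, with a median of -2.23. The mitosis genes called lower numbered 18 with the 9 FLT3L libraries alone, 15 with the 7 FL-cDC libraries, 11 with DESeq2, with limma on log2(FPKM + 1) and with the 3 FL-cDC1 libraries, 5 with limma on log2(FPKM + 0.1) and with the length trend taken out, and 2 without either immature library. Their summed level was 1389 and 1754 FPKM in the immature libraries and 350.3 FPKM in the mature library, against 74.9 and 68.0 FPKM in mature FL-cDC2s. Aurka, a mitotic kinase, had 59.6 and 60.6 FPKM in the immature libraries and 13.6 FPKM in the mature library (log2 fold change -2.18, adjusted p = 0.0342), a call lost without immature library 2 (adjusted p = 0.0832). The mature FL-cDC1 library thus carried more cell cycle transcript than either mature FL-cDC2 library, and 4 of 24 mitosis genes and 7 of 28 replication genes were called higher in it than in mature FL-cDC2s. In that comparison 6.16% of all tested genes were called higher. Whether the library held immature cells of the gate was not tested.

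Of 17 genes of the BCL2 family tested, 8 rose, 1 fell and 8 gave no call, with a median of 2.03. The shares over all tested genes were 12.6% higher and 8.28% lower. Among genes that protect from apoptosis, Bcl2a1b had 8.91 and 18.2 FPKM in the immature libraries and 451 FPKM in the mature library (log2 fold change 4.94, adjusted p = 0.000266), although the reads of the Bcl2a1 copies may be shared. Bcl2l1, which encodes BCL-XL, had 12.7 and 7.02 FPKM in the immature libraries and 41.7 FPKM in the mature library (log2 fold change 2.08, SE 0.30, adjusted p = 0.001), and Mcl1 had 96.0 and 71.6 FPKM in the immature libraries and 356 FPKM in the mature library (log2 fold change 2.03, adjusted p = 0.00123). Genes that promote apoptosis rose beside them. Bcl2l11, which encodes BIM, had 4.28 and 2.61 FPKM in the immature libraries and 18.1 FPKM in the mature library (log2 fold change 2.42, adjusted p = 0.00071), and Pmaip1, which encodes NOXA, had 11.9 and 11.6 FPKM in the immature libraries and 68.4 FPKM in the mature library (log2 fold change 2.47, adjusted p = 0.00223). The mature library was the highest for all of these genes. Bcl2 itself had 11.4 and 13.5 FPKM in the immature libraries and 4.36 FPKM in the mature library with no call (log2 fold change -1.60, adjusted p = 0.0958), and Bid fell (log2 fold change -1.90, adjusted p = 0.00483).

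Markers of other cells that a cDC1 gate could hold were read in all libraries. Their counts stand against 12.6% of all tested genes called higher and 8.28% called lower. Of 15 cDC2 markers, 3 rose, 2 fell and 10 gave no call, with a median log2 fold change of -0.91. Their summed level was 111 and 140 FPKM in the immature libraries and 64.1 FPKM in the mature library. It was 910 and 855 FPKM in immature FL-cDC2s and 114 and 100 FPKM in mature FL-cDC2s. Of 23 macrophage genes, 7 rose, 2 fell and 14 gave no call, and their summed level was 4226 and 4684 FPKM in the immature libraries, 1505 FPKM in the mature library and 63323 to 68038 FPKM in the non-DCs of the same culture. Most of that sum in FL-cDC1s was Lyz2, with 3816 and 4102 FPKM in the immature libraries and 1009 FPKM in the mature library (log2 fold change -2.05, adjusted p = 0.0462). Apoe went the other way, with 5.89 and 5.84 FPKM in the immature libraries and 105 FPKM in the mature library (log2 fold change 4.09, adjusted p = 0.0165). Both calls were lost without immature library 1 (adjusted p = 0.0502 for Lyz2 and adjusted p = 0.0611 for Apoe) and without immature library 2 (adjusted p = 0.113 and adjusted p = 0.07), and that for Lyz2 also with the length trend taken out (log2 fold change -1.29, adjusted p = 0.131). The defining markers C1qa, C1qb and C1qc were at 0.212, 1.51 and 0.637 FPKM in the mature library, and Adgre1, which encodes F4/80, had 3.64 and 2.65 FPKM in the immature libraries and 2.84 FPKM in the mature library. The median fitted change of the macrophage list was 2.79, while its sum was lower, since genes with levels near 0 had large fitted rises. Of 7 B cell genes, 2 rose. Cd79a had 0.330 and 0.168 FPKM in the immature libraries and 14.8 FPKM in the mature library (log2 fold change 5.81, SE 0.90, adjusted p = 0.00168). The summed level of the B cell list was 6.80 and 16.6 FPKM in the immature libraries, 33.8 FPKM in the mature one and 23.5 to 26.4 FPKM in mature FL-cDC2s, with Pax5 at 0.176 and Ebf1 at 0.0805 FPKM in mature FL-cDC1s. Of 11 plasmacytoid dendritic cell genes tested, 3 rose (Spib, Ly6d and Runx2), and Siglech had 1.96 and 2.39 FPKM in the immature libraries and 1.91 FPKM in the mature library. The summed level of that list was 24.6 and 20.0 FPKM in the immature libraries and 90.7 FPKM in the mature one. In mature FL-cDC2s it was 163 and 130 FPKM. The summed levels of the neutrophil, T and NK cell, mast cell and basophil, and erythroid lists were at most 4.72 FPKM in all 3 libraries, and that of the stroma list was 17.6, 9.90 and 6.54 FPKM. The part of such cells in the changes above was not tested.

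By size of fitted change alone, the 15 largest rises past the test with at least 10 FPKM in the mature library began at no or nearly no read in the immature libraries. Beside Mreg and Slco5a1 they included Lad1, which encodes ladinin, with 331 FPKM in the mature library, Akap2, an anchoring protein of protein kinase A, with 41.5 FPKM, Ankrd33b with 33.4 FPKM, Flrt3, an adhesion protein, with 29.7 FPKM, Gcm1 with 21.6 FPKM and Sod3, extracellular superoxide dismutase, with 19.5 FPKM. Against the floor of 3 reads per library Akap2 was at least 6492-fold higher, Flrt3 at least 2818-fold and Gcm1 at least 1023-fold. Akap2 lost its call without immature library 1 (adjusted p = 0.0641) and without immature library 2 (adjusted p = 0.0814). The 15 largest falls had smaller fitted sizes, with log2 fold changes from -4.04 to -3.07. They began at 10 FPKM or more in the immature libraries by the rule of choice, which set no minimum there for rises. The fitted size of a rise from no read also depends on the prior count. Lrrc25 had 23.7 and 25.5 FPKM in the immature libraries and 1.99 FPKM in the mature library (log2 fold change -3.71, SE 0.67, adjusted p = 0.00404), S1pr4, another sphingosine-1-phosphate receptor, 12.3 and 11.3 FPKM in the immature libraries and 1.16 FPKM in the mature library (log2 fold change -3.41, adjusted p = 0.00449) and Casp6, caspase 6, 174 and 266 FPKM in the immature libraries and 28.2 FPKM in the mature library (log2 fold change -3.07, adjusted p = 0.00247). Several of the falls were of genes whose immature libraries differed widely, such as Ankrd37 with 37.6 and 135 FPKM in the immature libraries and 10.9 FPKM in the mature library and Erh with 175 and 364 FPKM in the immature libraries and 32.3 FPKM in the mature library.

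The change on maturation was then set against that of FL-cDC2s, the other conventional dendritic cells of the culture, sorted CD83+ and CD83- with 2 libraries each. The fit over all 13 libraries tested the difference between the 2 changes, which share no library. The FL-cDC2 libraries were deposited together in the same table, while mature and immature FL-cDC1s were deposited in separate tables. Any difference in how the tables were made thus enters the FL-cDC1 change alone and cannot be told apart from it. By that test 747 genes (5.00%) had a higher change in FL-cDC1s than in FL-cDC2s and 154 (1.03%) a lower one. A higher difference can come from a larger rise in FL-cDC1s or from a larger fall in FL-cDC2s, so levels are given for each gene. Of the 32 mature dendritic cell genes, 7 had a higher and 4 a lower difference, and 21 gave no call.

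Of 18 costimulation and cytokine genes 3 had a higher difference, 1 a lower one and 14 no call, and of 16 inhibitory and regulatory genes 5 had a higher difference, 0 a lower one and 11 no call. Over all tested genes 5.00% had a higher difference and 1.03% a lower one. Pdcd1lg2 was at 1.298 and 0.807 FPKM before and 0.804 and 1.36 FPKM after maturation in FL-cDC2s, which did not separate, against the rise to 13.7 FPKM in FL-cDC1s (adjusted p = 0.000379 for the difference). Tnfsf4 was at 4.25 and 2.88 FPKM in immature and 3.51 and 4.81 FPKM in mature FL-cDC2s against 18.7 FPKM in mature FL-cDC1s (adjusted p = 0.000202). Cd274 was at 11.7 and 17.8 FPKM in immature and 58.3 and 51.1 FPKM in mature FL-cDC2s (adjusted p = 0.0019), so the mature levels were close and the immature levels were not. The same held for Ccr7, with 18.7 and 32.9 and 6939.6 and 10488 FPKM in FL-cDC2s (adjusted p = 0.0357), for Cd63 with 23.0 and 28.2 and 652 and 875 FPKM (adjusted p = 0.00106), and for Il4i1 with 45.2 and 39.9 and 1232 and 1089 FPKM (adjusted p = 0.00252). In each pair of values the immature FL-cDC2 libraries come before the mature ones. Il12b started low in FL-cDC2s too (0.489 and 0.722 FPKM), and reached 753 and 714 FPKM in mature FL-cDC2s against 1435 FPKM in mature FL-cDC1s (adjusted p = 0.0193). Mfge8 did not separate the FL-cDC2 subsets by more than a few FPKM, at 25.5 and 25.2 and 21.0 and 22.8 FPKM (adjusted p = 0.0017), and Lgmn was at 103 and 115 and 116 and 99.2 FPKM (adjusted p = 0.0309). The differences for Ccr7, Il12b and Lgmn lay near the threshold. Leaving out single libraries raised the adjusted p to as much as 0.122 for Ccr7 (without mature FL-cDC2 library 1), 0.0706 for Il12b and 0.123 for Lgmn (both without mature FL-cDC2 library 2).

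Other genes had the smaller change, or the opposite one, in FL-cDC1s. In FL-cDC2s Irf8 stood at 15.5 and 21.5 FPKM before and 412 and 450.1 FPKM after maturation, with a fitted log2 change of 4.78 there against -0.83 in FL-cDC1s (adjusted p = 0.000548 for the difference). Batf3 was at 17.4 and 11.9 and 59.4 and 88.1 FPKM in FL-cDC2s, with fitted changes of 2.72 and -1.36 (adjusted p = 0.0232), a call lost without immature FL-cDC2 library 2 (adjusted p = 0.0755) and without mature FL-cDC2 library 2 (adjusted p = 0.0702). On the FPKM scale mature FL-cDC1s and mature FL-cDC2s thus lay nearer to each other in Irf8 than the immature subsets did. Batf3 changed order, with higher levels in FL-cDC1s before maturation and in FL-cDC2s after it. Cd81, a tetraspanin, was at 1.69 and 2.69 and 118 and 145 FPKM in FL-cDC2s against 125 and 118 FPKM in the immature libraries and 239 FPKM in the mature library of FL-cDC1s (adjusted p = 0.000434). Il15, Il15ra and Ccl17 of the mature dendritic cell list rose less in FL-cDC1s than in FL-cDC2s, which reached 39.9 and 56.7, 158 and 178 and 10.4 and 20.7 FPKM.

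Of 15 cDC2 markers 8 and of 23 macrophage genes 15 had a higher difference, against 5.00% of all tested genes. In either list 0 had a lower one. These counts do not tell falls in FL-cDC2s from rises in FL-cDC1s. On maturation of FL-cDC1s 7 macrophage genes were called higher, and the median of that list was 2.79. For the genes named next, the level in FL-cDC2s was lower after maturation, and the difference was higher. Clec10a, a lectin of cDC2s, was at 49.4 and 44.2 FPKM in immature and 0 and 0.0704 FPKM in mature FL-cDC2s and never above 1 FPKM in FL-cDC1s (adjusted p = 0.000437). Ccr1 was at 84.4 and 75.0 and 0.311 and 0.251 FPKM in FL-cDC2s, against the smaller drop in FL-cDC1s given above (adjusted p = 0.0017). Wdfy4 was at 46.0 and 30.5 and 0.196 and 0.231 FPKM in FL-cDC2s (adjusted p = 0.00393), Myc at 90.3 and 91.6 and 1.94 and 2.25 FPKM (adjusted p = 0.00111), and Itgax, which encodes CD11c, at 73.6 and 49.2 and 2.27 and 1.94 FPKM (adjusted p = 0.00143). The mature FL-cDC1 library kept between 29.3% (Myc) and 47.6% (Itgax) of the mean immature level of Ccr1, Wdfy4, Myc and Itgax, and the mature FL-cDC2 libraries kept between 0.315% (Ccr1) and 3.71% (Itgax).

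**Figure D4:**
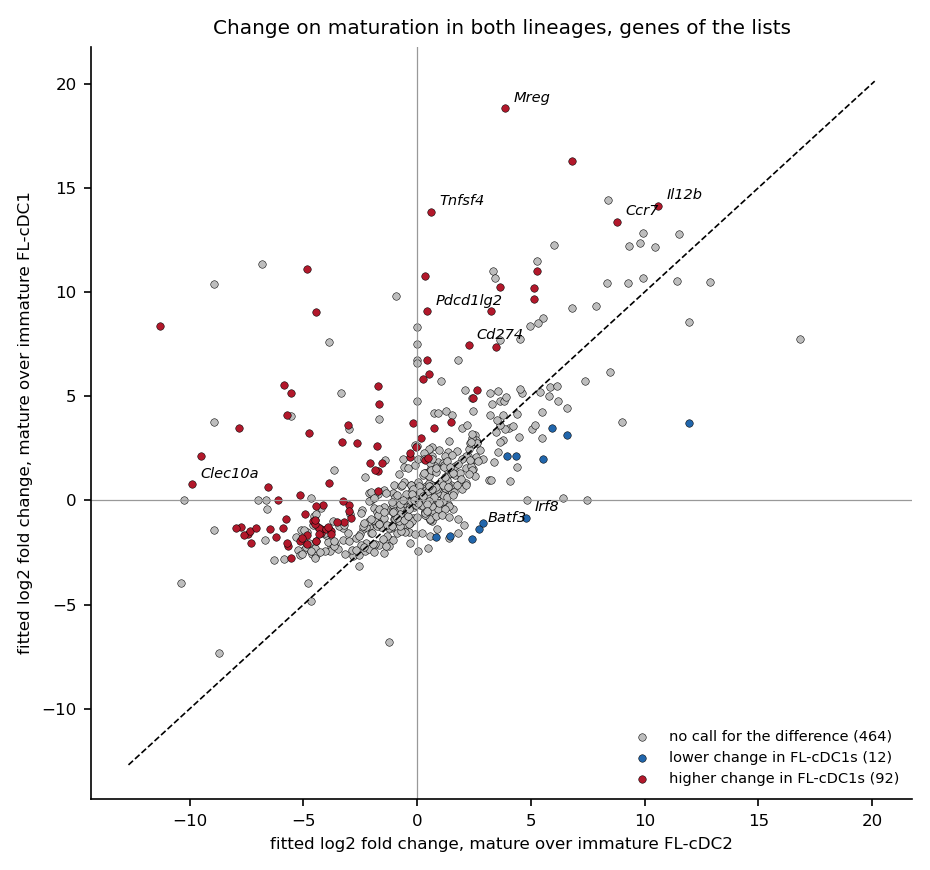
Fitted log2 change on maturation in FL-cDC1s against that in FL-cDC2s for the tested members of the gene lists, 1 point per gene, with the genes whose changes differ by the test in colour and the diagonal of equal change as a dashed line. Most mature dendritic cell genes lie at the upper right, Pdcd1lg2 and Tnfsf4 lie high above an FL-cDC2 change near 0, and Irf8 lies at the lower right.

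Set directly against mature FL-cDC2s, the mature FL-cDC1 library was higher in 920 genes (6.16%) and lower in 393 (2.63%). The mature subsets were deposited in separate tables as well. Of the 28 cDC1 identity genes, 16 were higher, 0 lower and 12 without a call, with a median log2 difference of 3.38. Xcr1 stood at 44.6 FPKM against 0.214 and 0.236 (log2 difference 7.62, SE 0.87, adjusted p = 0.000622), and Clec9a at 5.25 against 0.0441 and 0.0187 (log2 difference 7.29, SE 0.67, adjusted p = 0.000308). Naaa stood at 213 FPKM against 2.07 and 2.65 (log2 difference 6.49, SE 0.35, adjusted p = 4.73e-05). For Xcr1, Clec9a and Naaa the mature FL-cDC1 library was thus above both mature FL-cDC2 libraries and below both immature FL-cDC1 libraries. Batf3 was at 31.1 FPKM in mature FL-cDC1s against 59.4 and 88.1 FPKM in mature FL-cDC2s. Of the 32 mature dendritic cell genes, 0 were higher and 2 lower, Etv3 and Il15ra, and 30 gave no call. Among genes lower in mature FL-cDC1s, Aldh1a2 stood at 0.380 FPKM against 22.6 and 22.7 (log2 difference -5.89, SE 0.56, adjusted p = 0.000435), Gbp2 at 44.8 against 305 and 327 (log2 difference -2.82, SE 0.47, adjusted p = 0.00524), Fas at 18.1 against 99.3 and 122 (log2 difference -2.62, SE 0.47, adjusted p = 0.00773), and Sirpa at 5.46 against 58.1 and 39.0 (log2 difference -3.16, SE 0.52, adjusted p = 0.00513). Among genes higher in mature FL-cDC1s outside the identity list, Itgb8 stood at 14.2 FPKM against 1.57 and 1.89 (log2 difference 3.03, SE 0.61, adjusted p = 0.0197), Ido1 at 31.3 against 1.93 and 1.97 (log2 difference 3.94, SE 0.94, adjusted p = 0.0292) and Mfge8 at 141 against 21.0 and 22.8 (log2 difference 2.70, SE 0.27, adjusted p = 0.00037). With either mature FL-cDC2 library left out, the calls for Itgb8 (adjusted p = 0.121 and 0.0967) and Ido1 (adjusted p = 0.142 and 0.146) were lost.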

How the data were processed

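RNA from sorted FL-cDC subsets and from the other cells of the series was made into cDNA by PCR amplification without molecular identifiers, and sequenced. The authors deposited, in 6 tables, raw read counts per gene and FPKM per gene for each of the 13 libraries, with RefSeq genes and mm10. Tools in the submitters' processing notes include StringTie 1.3.4d, HTSeq, STAR 2.6.0c, Trimmomatic and bcl2fastq 2.20.0, while the study's methods name HISAT as the aligner. How strand and shared reads were counted is not given in the sources used here, so reads of overlapping genes and near-identical copies may be shared. FPKM served for levels and counts for tests. Of 24532 genes, 24462 matched RefSeq, 17308 had a read and 14936 passed filterByExpr.

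Counts were fitted with edgeR 4.0.16 (quasi-likelihood, TMM, R 4.3.3) over all 13 libraries with 1 coefficient per subset, since the mature FL-cDC1 library has no replicate. Genes were called at a Benjamini-Hochberg adjusted p under 0.05 over all tested genes. The SE of a change was taken as its size over the square root of F. An unadjusted p under 0.05 was reached by 5397 genes for maturation, 3028 for the difference from FL-cDC2s and 3639 between the mature subsets. No source says that the libraries of a subset came from different cultures or mice, and p-values therefore measure the spread between these libraries. Floors and p-values cover no error of the amplification.

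On simulated counts for FL-cDC1 maturation (14306 genes) the test recovered 0% of 2-fold, 34% of 4-fold, 76% of 8-fold and 82% of 16-fold changes. Of its calls 2.04% were false. The simulated libraries shared the same mean for each gene except 200 changed ones, had the fitted spread and held no trend over length. These rates need not hold for the data. The alternatives were other scaling (size factors by median of ratios, library size alone), no filter or a stricter one, DESeq2 1.42.0, limma 3.58.1 on log2(FPKM + 1) and log2(FPKM + 0.1), fits of fewer libraries, a 2-fold minimum, leaving out each library of a pair, the replicate number as a block, and a correction for transcript length added after the data were seen. Named genes are members of the lists, the sorting markers and the largest changes (15 each way on maturation, 10 each way in the other comparisons) with at least 10 FPKM in the higher subset. The members and the lists were chosen with earlier results of these data known. A few genes are not reported here.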

Additional observations from a re-analysis of the deposited data

Results flagged for a closer look

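For 17 genes named above, the change on maturation differed between FL-cDC1s and FL-cDC2s by edgeR's test of the difference, and the values here are the log2 change in FL-cDC1s less that in FL-cDC2s. Among ligands and cytokines the difference was 8.65 for Pdcd1lg2, 5.18 for Cd274, 3.54 for Il12b, and 13.25 for Tnfsf4, whose fitted value depends on the prior count because the immature FL-cDC1 libraries had no read. Among migration and membrane genes it was 4.61 for Ccr7, 6.45 for Ccr1 and 5.71 for Cd63, and it was 5.03 for Il4i1, 1.58 for Lgmn and 2.84 for Mfge8. It was 10.67 for Clec10a, 3.35 for Itgax, 5.75 for Wdfy4 and 3.23 for Myc. It was negative for Irf8 (-5.61), Batf3 (-4.08) and Cd81 (-5.38). The single mature FL-cDC1 library enters every one of these values. No subset had the 4 libraries needed for a test of single outlying samples.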

How the results depend on the processing

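The mature subset had 1 library, so no setting tests its own spread. FL-cDC1 maturation gave 1237 genes lower, and this count moved to 1975 with DESeq2, 641 with the 7 FL-cDC libraries and 312 with the 3 FL-cDC1 libraries, and to between 724 and 1682 when an immature library was left out, while the 1883 genes higher stayed between 1416 and 1878 then and within 1.5 times of the main count in every other setting. The genes called for maturation kept their direction under the 12 other settings where they were tested, and 1 gene changed sign with the length correction, which shared 2761 calls with the main fit. The difference from FL-cDC2s (747 higher, 154 lower) moved to 1143 and 97 with library size alone, which shifts the median gene by 0.44, to 1328 and 556 with DESeq2, to 1296 and 236 with limma on log2(FPKM + 1) and to 1295 higher on log2(FPKM + 0.1). Lower genes were 71 with the 7 FL-cDC libraries and 303 with the length correction. Leaving out single libraries gave 404 to 760 higher and 64 to 262 lower. Mature FL-cDC1s over mature FL-cDC2s (920 and 393) gave 1457 and 1061 with DESeq2, 702 and 666 lower on the 2 FPKM scales, 168 lower with the 7 FL-cDC libraries, 1530 and 832 with the length correction, and 413 to 430 higher and 102 to 158 lower with a mature FL-cDC2 library left out. The cause of these moves was not tested.

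Of 167 values of single genes, 118 kept their call and direction under all settings. The fitted change of H2-Aa, which gave no call, turned from -0.72 to 0.13 with the length correction. Of 68 list counts, 26 stayed within 1.5 times. Of 2239 gene values under the settings, 82 lost the call and 45 gained it. In the fit of the 3 FL-cDC1 libraries alone 18 named genes lost their call, among them Myc (adjusted p = 0.133) and Rela (adjusted p = 0.0725).

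The replicate numbers did not pair the libraries: deviations from the subset means of same-numbered libraries correlated at -0.459 to 0.649. The label of the mature FL-cDC1 library carries no number, so it was set midway between the numbers in the fits with a block. With the number as a block the difference gave 706 genes higher and 138 lower, and mature FL-cDC1s over mature FL-cDC2s gave 866 and 326. For FL-cDC1 maturation no paired analysis was possible because the single mature library has no numbered partner among the immature ones.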

Other observations

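Single genes of cholesterol synthesis and of cholesterol efflux were called higher in mature FL-cDC1s. Of 22 sterol synthesis genes tested, 5 rose, 0 fell and 17 gave no call, with a median log2 fold change of 0.71, against 12.6% of all tested genes higher. Idi1, an isomerase of the mevalonate pathway, had 18.2 and 12.5 FPKM in the immature libraries and 117 FPKM in the mature library (log2 fold change 2.88, SE 0.43, adjusted p = 0.00133). Hmgcs1, which makes the precursor of mevalonate, had 36.5 and 16.5 FPKM in the immature libraries and 76.7 FPKM in the mature library (log2 fold change 1.51, adjusted p = 0.0384), and Fdft1, squalene synthase, had 18.0 and 14.6 FPKM in the immature libraries and 40.3 FPKM in the mature library (log2 fold change 1.24, adjusted p = 0.0387). Without immature library 1 the list held 3 genes called higher, and without immature library 2 it held 2. The call for Fdft1 was lost without either one (adjusted p = 0.0739 and adjusted p = 0.103) and with the length trend taken out (adjusted p = 0.0874), and that for Hmgcs1 without immature library 2 (adjusted p = 0.148). Of 13 genes of cholesterol efflux and liver X receptor (LXR) targets, 7 rose, 1 fell and 5 gave no call, with a median of 2.11. Abcg1, a cholesterol exporter, had 6.69 and 5.74 FPKM in the immature libraries and 28.2 FPKM in the mature library (log2 fold change 2.11, SE 0.24, adjusted p = 0.000264), and Mylip, the ubiquitin ligase that degrades the LDL receptor, had 1.06 and 1.57 FPKM in the immature libraries and 15.5 FPKM in the mature library (log2 fold change 3.46, adjusted p = 0.00042). Ch25h, cholesterol 25-hydroxylase, had 0.169 and 0.231 FPKM in the immature libraries and 5.81 FPKM in the mature library (log2 fold change 4.75, adjusted p = 0.00635). The mature library lay above both immature libraries for each of the genes named here.

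Of 20 glycolysis genes, 2 rose, 2 fell and 16 gave no call, with a median of -0.47, shares near the 12.6% higher and 8.28% lower of all tested genes. Pfkfb3, which makes the activator of phosphofructokinase, had 3.71 and 3.66 FPKM in the immature libraries and 46.4 FPKM in the mature library (log2 fold change 3.596, SE 0.41, adjusted p = 0.00022), and the sugar transporter gene Slc2a6 had 75.6 and 62.4 FPKM in the immature libraries and 223 FPKM in the mature library (log2 fold change 1.63, adjusted p = 0.00722). Of the hexokinase genes, Hk3 had 20.3 and 19.7 FPKM in the immature libraries and 3.83 FPKM in the mature library (log2 fold change -2.51, adjusted p = 0.0062) and Hk2 5.19 and 7.65 FPKM in the immature libraries and 2.25 FPKM in the mature library (log2 fold change -1.61, adjusted p = 0.0361), the latter call lost without immature library 2 (adjusted p = 0.119). Of 19 immediate early and stress genes, which handling of cells can induce, 2 rose (Ppp1r15a and Ier3), 0 fell and 17 gave no call. The share of higher genes was near the 12.6% of all tested genes. Fos had 269 and 286 FPKM in the immature libraries and 214 FPKM in the mature library. Hspa1a had 4.67 and 16.5 FPKM in the immature libraries and 10.7 FPKM in the mature library.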
